A study of Arabidopsis thaliana with 4 samples.

Results

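The genes described here are 36 nuclear genes of Arabidopsis thaliana that encode subunits of the photosynthetic electron transport chain, taken from a list of locus IDs among the 33610 gene rows of the deposited count table. They comprise 12 genes of photosystem I, 13 genes of photosystem II, 6 genes of electron carriers, 2 genes of the chloroplast ATP synthase, 2 genes of cyclic electron flow, and CURT1B. CURT1B was once named PSI-P as a photosystem I subunit and is now known as a protein that curves thylakoid membranes, and PSB27 and PSB28 are assembly factors rather than stable subunits. Light-harvesting antenna genes and the subunits encoded in the chloroplast are not part of the list. Messenger RNA was sequenced from 2-week-old seedlings of the Col-0 accession, in wild type and in a lincRNA11195 mutant, each without treatment or after 12 h of abscisic acid (ABA). The 4 groups held 3 biological replicates each per the series text, which gave 12 libraries. The labels give neither the ABA dose nor the kind of lesion in the mutant, and the lincRNA11195 transcript itself was not analysed here. A treatment time of 12 h is recorded for the ABA groups only. The label of the untreated wild type also carries a 12, without a stated meaning, and that of the untreated mutant does not. Whether the untreated groups were harvested at the same hour is not known here. A difference in harvest time could therefore not be told apart from ABA or genotype. Whole seedlings were used, so in these bulk samples fewer photosynthetic cells and less RNA per cell cannot be told apart.

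Photosystem II takes electrons from water at a manganese cluster and passes them through plastoquinone to the cytochrome b6f complex, and plastocyanin then carries them to photosystem I. Photosystem I reduces ferredoxin, from which ferredoxin-NADP reductase makes NADPH, while the proton gradient built along the way drives the ATP synthase. The reaction centre cores are encoded in the chloroplast, whereas most peripheral subunits are encoded in the nucleus, where light and chloroplast state are known to control their transcription. ABA is the hormone of drought and seed dormancy, and in many plants it is known to lower mRNAs of photosynthesis genes.

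Bases upstream of the annotated gene start are shown for 4 of the genes, because a shared sequence element is the usual first question about genes that move together. PSBTN had the largest fall with ABA in wild type, PSBQ-1 and PSBQ-2 are copies that both fell, and FNR2 was called in no comparison. The windows are those 5′ of the start in the RefSeq annotation of TAIR10.1, matched by locus ID, up to 250 bases and without any part inside a neighbouring gene. They lie at chr3:7377227-7377390 on the minus strand (PSBTN, AT3G21055), chr4:11334169-11334351 on the plus strand (PSBQ-1, AT4G21280), chr4:2673244-2673493 on the minus strand (PSBQ-2, AT4G05180) and chr1:6942375-6942624 on the plus strand (FNR2, AT1G20020). Each is written in the gene's direction with the last base next to the start, and capitals mark a G-box (CACGTG) or an I-box core (GATAAG, or CTTATC on the other strand).
PSBTN: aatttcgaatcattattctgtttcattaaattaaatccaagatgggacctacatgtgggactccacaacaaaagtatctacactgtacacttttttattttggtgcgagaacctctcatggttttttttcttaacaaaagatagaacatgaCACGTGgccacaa
PSBQ-1: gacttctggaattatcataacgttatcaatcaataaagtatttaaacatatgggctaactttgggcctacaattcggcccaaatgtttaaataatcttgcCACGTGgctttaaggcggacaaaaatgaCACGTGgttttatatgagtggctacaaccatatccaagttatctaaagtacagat
PSBQ-2: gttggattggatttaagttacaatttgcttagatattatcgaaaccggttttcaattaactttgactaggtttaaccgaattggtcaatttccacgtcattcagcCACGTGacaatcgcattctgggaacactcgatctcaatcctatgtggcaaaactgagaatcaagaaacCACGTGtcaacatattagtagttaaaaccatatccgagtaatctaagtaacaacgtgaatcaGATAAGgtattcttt
FNR2: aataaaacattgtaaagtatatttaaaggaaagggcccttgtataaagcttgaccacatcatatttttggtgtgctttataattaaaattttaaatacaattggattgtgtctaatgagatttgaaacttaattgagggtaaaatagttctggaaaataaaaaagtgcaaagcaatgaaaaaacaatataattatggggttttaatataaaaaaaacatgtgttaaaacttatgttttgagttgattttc
The PSBTN stretch holds 1 G-box and each PSBQ stretch holds 2, and PSBQ-2 also has 1 I-box core, whereas the FNR2 stretch has neither. These windows do not stand for the rest. PSAL, PSBO1, PSBO2, PSBR and PSBY, which also fell with ABA in wild type, have neither motif in their full windows, and FNR1, which was not called, has 1 I-box core. Over full windows of 250 bases, searched on both strands, a G-box was found in 7 of 36 genes (19.4%), against 6.49% of 27443 nuclear protein-coding genes. The I-box core was found in 8 of 36 (22.2%, against 12.3%), and the ABA-responsive element core ACGTGNC, whose matches can overlap a G-box, in 10 of 36 (27.8%, against 8.57%). The evening element AAAATATCT was found in 1 of 36 (2.78%, against 2.36%). These matches describe letters in a window and say nothing about the binding of a factor.

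Total counts ranged from 14691544 to 22477294 per library, and all 36 genes passed the filter on low counts that left 21322 genes for testing. Levels are TMM-normalised CPM, each library's counts scaled to a common total, and a level per kilobase divides this by the exonic length, with n = 3 in every group. A value with ± in the gene descriptions is a log2 fold change with its standard error. The 36 genes held 2.82 ± 0.246% of all counts in untreated wild type (mean ± SD), 1.31 ± 0.0293% in wild type with ABA, 1.42 ± 0.178% in the untreated mutant and 1.12 ± 0.22% in the mutant with ABA. Within groups, a library tended to be high or low for most of the genes at once. In the untreated mutant, replicate 1 was the lowest library for 29 of the 36 genes and replicate 3 the highest for 31. With ABA the mutant replicate 2 was lowest for 32 and replicate 3 highest for 34, and untreated wild type replicate 2 was highest for 29. Per kilobase, the highest level in untreated wild type was that of PSBR (2065 ± 360.3 CPM per kb), followed by FD2 (1785 ± 276) and PSBO1 (1745 ± 129), whose ranges over libraries overlapped, and the lowest was that of PETE1 (62.2 ± 2.7).

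Most of these mRNAs were lower with ABA in wild type, and most of them were also lower in the untreated mutant than in untreated wild type. In wild type, 30 of the 36 genes fell with ABA and 0 rose (edgeR's quasi-likelihood test with Benjamini-Hochberg adjustment at 0.05), where 28.2% of all genes tested fell and 25.2% rose. In the untreated mutant, 29 of the 36 were lower than in untreated wild type and 0 were higher, where 14.8% of all genes were lower and 8.77% were higher. The median log2 fold change of the 36 genes was -1.4 with ABA in wild type (range -3.49 to 0.08) and -1.46 in the untreated mutant (range -3.36 to 0.28), against medians of -0.03 and 0.01 over all genes. Both comparisons use the same 3 untreated wild type libraries, so a high draw in those libraries would lower both, and the values are given side by side only. Libraries of the groups did not overlap, with ABA lower, for 33 genes in the first comparison, and with the mutant lower for 32 in the second. Over all genes tested, 32.3% and 23.9% were separated in those directions.

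**Figure D1:**
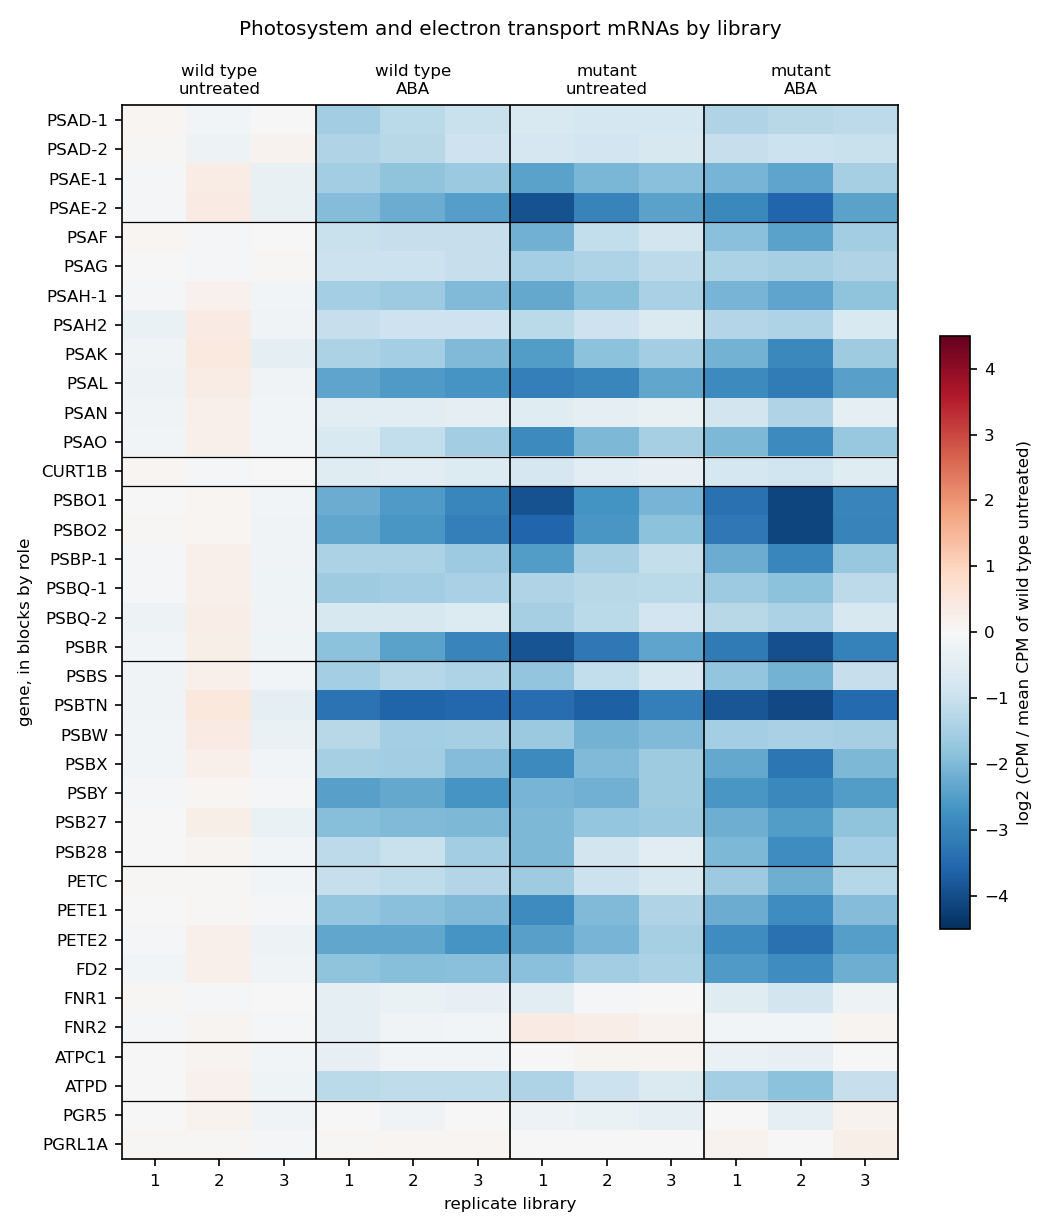
Heat map of the 36 genes (rows, in blocks by role) in the 12 libraries (columns), coloured by log2 of CPM over the mean CPM of untreated wild type. Rows of FNR1, FNR2, ATPC1, PGR5 and PGRL1A stay near 0 in all groups, while most others are blue in wild type with ABA, in the untreated mutant and in the mutant with ABA.

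Within the mutant few of the genes fell with ABA, and between genotypes under ABA none was called. In the mutant 5 of the 36 genes fell with ABA and 0 rose, where 21.1% of all genes fell and 21.5% rose, so the share of the 36 (13.9%) was below the background. That order turned with GC correction, described with the GC values, where 13 of the 36 fell (36.1%, against 25.6% of all genes). It also turned without untreated mutant replicate 1 (36.1%, against 21.4%), without mutant ABA replicate 3 (38.9%, against 21.3%) and with DESeq2's test (22.2%, against 18.2%). Their median log2 fold change there was -0.33, against 0 over all genes. Under ABA, 0 of the 36 differed between mutant and wild type, with 0.178% of all genes lower and 1.61% higher in the mutant. At an unadjusted p under 0.05, 8 were lower in the mutant under ABA (22.2%, against 5.52% of all genes), and DESeq2's Wald test called 2, PSAG and FD2 (5.56%, against 0.616%). The interaction, which is the log2 ABA response of the mutant minus that of wild type, was positive for 11 of the 36 genes and negative for 0, where 1.66% of all genes were positive and 0.141% negative. Its median over the 36 was 0.99, against -0.01 over all genes. The 6 genes called in no comparison were PSAN, FNR1, FNR2, ATPC1, PGR5 and PGRL1A, of which PSAN, FNR2 and ATPC1 gained a call with GC correction.

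**Figure D2:**
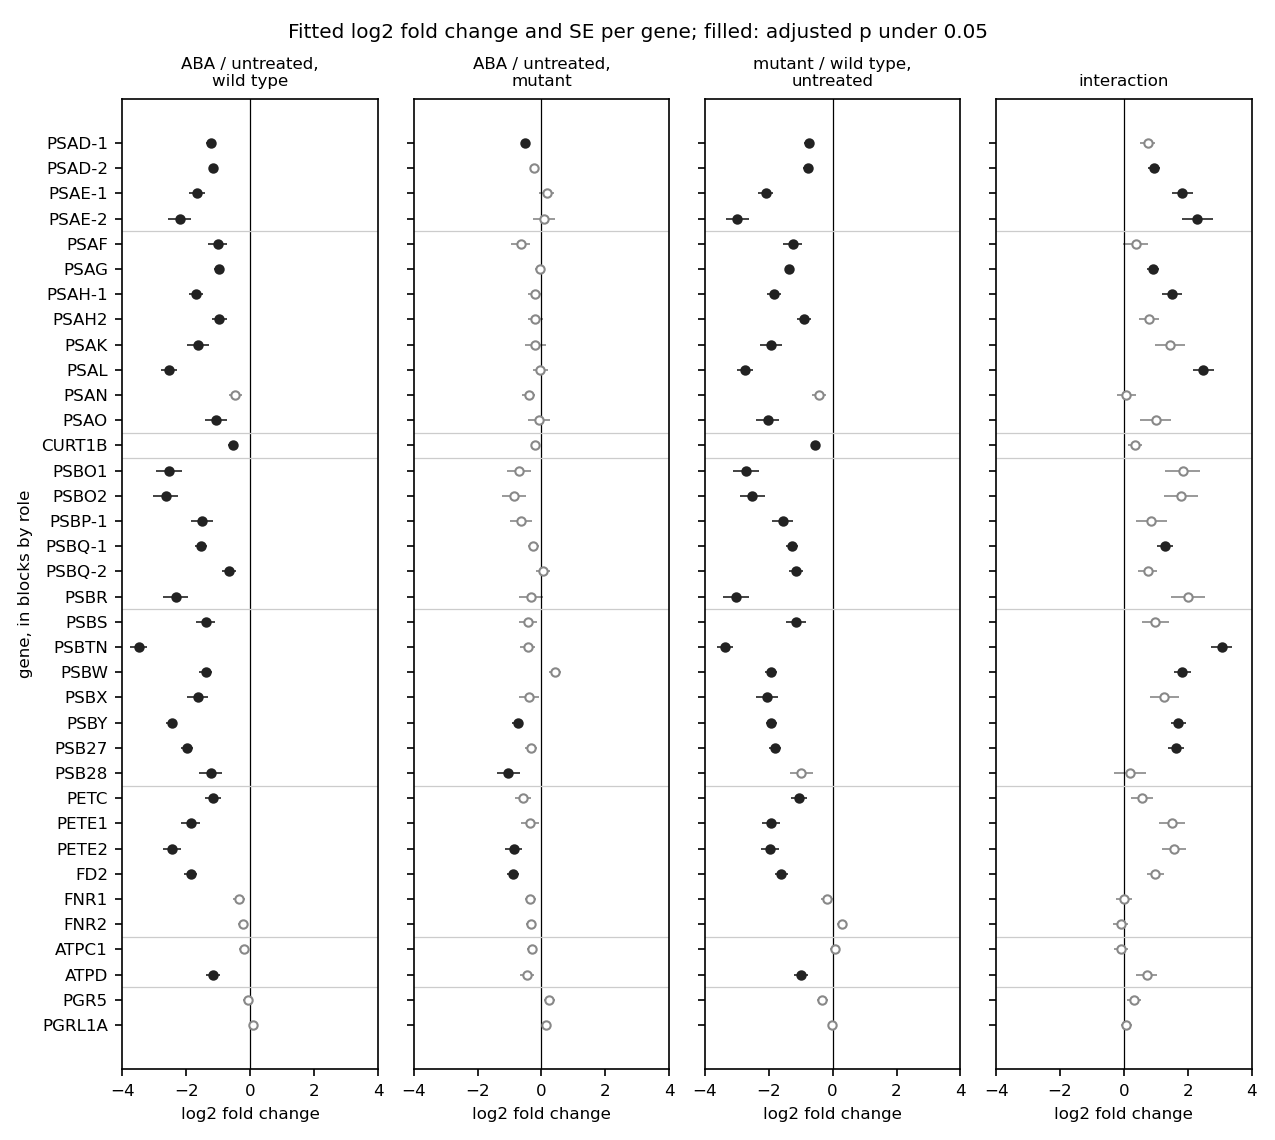
Fitted log2 fold change with its standard error for each of the 36 genes (rows) in 4 comparisons (panels), with filled points for adjusted p under 0.05 in edgeR. The first and the third panel show 30 and 29 filled points left of 0, the second 5, and the interaction panel 11 right of 0.

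Other measures moved with these comparisons. The summed level of 19 root marker genes, fixed as markers of the non-photosynthetic part of a seedling, was 266 to 376 CPM in untreated wild type, 117 to 127 with ABA, 153 to 288 in the untreated mutant and 88.8 to 121 in the mutant with ABA. None of the 19 was at 0 in every library of a group. With ABA in wild type 13 of the 19 fell (68.4%, against 28.2% of all genes) and 1 rose (5.26%, against 25.2%). In the untreated mutant 4 were lower (21.1%, against 14.8%) and 0 higher. The sum includes PHT1;1 and IRT1, with means of 81.9 and 46.3 CPM in untreated wild type and 16.4 and 0.326 CPM in wild type with ABA. The part of root tissue in the result was not tested. GC content moved with the fold changes as well. Over all genes with an annotated GC content (n = 21195 genes, which are not independent), Spearman's rho between GC content and log2 fold change was -0.242 for ABA in wild type and -0.422 for the untreated genotypes. Over the 36 genes it was -0.597 and -0.652. Their GC content ranged from 38.2% to 47.9% with a median of 42.2%, against 41.1% over all genes tested. With a correction of each library for GC content and length, the median of the 36 was -0.82 for ABA in wild type, with 28 genes called lower (77.8%, against 28.2% of all genes), and -0.94 for the untreated mutant, with 24 called lower (66.7%, against 9.51%). Neither the correction nor its absence is known to be right for these libraries, so corrected values are given beside each called result they move by over 1.5 times or whose call they end. The correction also added calls in the mutant with ABA, for PSAF, PSBO2, PSB27, PETC, ATPD, PSAN (-0.56), FNR2 (-0.55) and ATPC1 (-0.35), all lower.

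**Figure D3:**
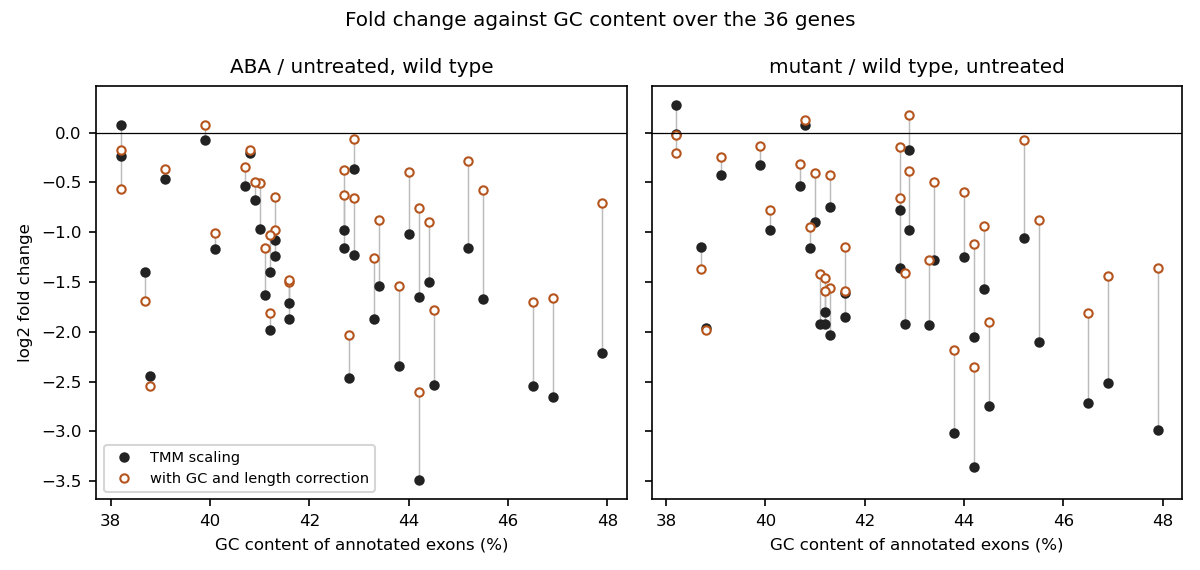
Log2 fold change (vertical axis) against GC content of the annotated exons (horizontal axis) for the 36 genes, with ABA in wild type on the left and mutant against wild type untreated on the right. Filled points use TMM scaling and open points the GC and length correction, and grey lines join the values of a gene. Rank correlations of -0.597 and -0.652 become -0.244 and -0.298 after the correction.

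On the stromal side of photosystem I, PSAD and PSAE form the docking site of ferredoxin, each from 2 gene copies, and all 4 genes fell with ABA in wild type and were lower in the untreated mutant. PSAE-2 stood at 215, 294 and 182 CPM in the untreated wild type libraries and at 59.5, 48.9 and 41.5 CPM with ABA. Mutant PSAE-2 values were 15.4, 29 and 43 CPM untreated and 31.1, 19.4 and 43.1 CPM with ABA. All untreated wild type libraries lay above the other 9. The log2 fold change was -2.21 ± 0.35, adjusted p = 0.000226, with ABA in wild type and -2.98 ± 0.37, adjusted p = 0.000156, in the untreated mutant, which is a 7.89-fold lower level. GC-corrected, these were -0.71 and -1.36, both still called. PSAE-1 stood at 449, 594 and 373 CPM in the untreated wild type libraries and at 160.2, 136 and 149.5 CPM with ABA. Mutant PSAE-1 values were 90.0, 113 and 128 CPM untreated and 112, 90.2 and 168 CPM with ABA. Here too untreated wild type stood apart, at log2 fold changes of -1.67 ± 0.24, adjusted p = 0.000103, with ABA and -2.1 ± 0.24, adjusted p = 0.000105, in the mutant, or -0.58 and -0.88 after GC correction, both called.

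PSAD, which holds ferredoxin in place, has a highly and a weakly expressed copy. PSAD-1 stood at 633, 552 and 608 CPM in the untreated wild type libraries and at 204, 259 and 296 CPM with ABA. Mutant PSAD-1 values were 374, 347 and 349 CPM untreated and 235, 254 and 265 CPM with ABA. The untreated mutant lay between untreated wild type and both ABA groups, and none of these ranges overlapped except those of the ABA groups. PSAD-1 fell with ABA in wild type (-1.24 ± 0.16, adjusted p = 3.72e-05) and in the mutant (-0.5 ± 0.15, adjusted p = 0.0188), and was lower in the untreated mutant (-0.75 ± 0.15, adjusted p = 0.00465). After GC correction the genotype difference was -0.42 and no longer called, and without mutant ABA replicate 1 the fall in the mutant was -0.46 and lost its call. PSAD-2 stood at 80.7, 67.1 and 87.7 CPM in the untreated wild type libraries and at 30.5, 33.1 and 41.6 CPM with ABA. Mutant PSAD-2 values were 47, 43.5 and 47.1 CPM untreated and 38.3, 39.7 and 39.6 CPM with ABA. Its levels followed the same order, with log2 fold changes of -1.16 ± 0.14, adjusted p = 2.49e-05, for ABA in wild type and -0.78 ± 0.14, adjusted p = 0.00182, for the untreated mutant. These became -0.63, still called, and -0.14, not called, after GC correction.

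Of the 8 photosystem I genes for membrane and lumen subunits, 7 fell with ABA in wild type and were lower in the untreated mutant. PSAL, which sits with PSAH and PSAO at the edge where mobile antenna docks, fell most. PSAL stood at 969, 1410.3 and 1014 CPM in the untreated wild type libraries and at 217, 192 and 180.2 CPM with ABA. Mutant PSAL values were 133, 149 and 224 CPM untreated and 156, 129 and 207 CPM with ABA. The untreated wild type libraries were all above the other 9, which overlapped among groups. PSAL fell 5.76-fold with ABA in wild type (log2 fold change -2.53 ± 0.25, adjusted p = 5e-06) and was 6.7-fold lower in the untreated mutant (-2.74 ± 0.25, adjusted p = 2.61e-05). The response to ABA in the mutant was -0.04 ± 0.23 and not called (adjusted p = 0.909).

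PSAH is needed for docking the mobile antenna in state transitions and has 2 copies. PSAH-1 stood at 296, 366 and 291 CPM in the untreated wild type libraries and at 109, 103 and 79.4 CPM with ABA. Mutant PSAH-1 values were 64, 85.1 and 115 CPM untreated and 75.3, 62.1 and 90.9 CPM with ABA. Untreated wild type was separate from all other libraries, and the other groups overlapped. PSAH-1 fell with ABA in wild type (-1.71 ± 0.22, adjusted p = 4.87e-05) and was lower in the untreated mutant (-1.85 ± 0.22, adjusted p = 0.00014). PSAH2 stood at 314, 501 and 342 CPM in the untreated wild type libraries and at 186, 201 and 202 CPM with ABA. Mutant PSAH2 values were 167, 204 and 247 CPM untreated and 156, 148 and 239.7 CPM with ABA. PSAH2 libraries showed the same separation, with a smaller gap. Its log2 fold changes were -0.97 ± 0.23, adjusted p = 0.00318, with ABA and -0.9 ± 0.23, adjusted p = 0.0137, in the untreated mutant. The first was -0.51, still called, after GC correction, and the second -0.4 and not called, nor was it called without untreated wild type replicate 2 (-0.63) or untreated mutant replicates 1 (-0.77) or 2 (-0.86).

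PSAO, which helps the mobile antenna to dock, had a wide spread within groups. PSAO stood at 567, 719.8 and 567 CPM in the untreated wild type libraries and at 382, 286 and 208 CPM with ABA. Mutant PSAO values were 85.7, 151 and 217 CPM untreated and 153, 85.3 and 191 CPM with ABA. Wild type with ABA lay between untreated wild type and the untreated mutant, whose highest library was above the lowest ABA library. The fall with ABA in wild type was -1.08 ± 0.35, adjusted p = 0.0186, and lost its call after GC correction (-0.65), without untreated wild type replicate 2 (-0.91), and without ABA wild type replicate 2 (-1.06) or 3 (-0.89). The untreated mutant was lower (-2.03 ± 0.36, adjusted p = 0.00169). Under ABA the mutant libraries lay below all wild type libraries, at a log2 difference of -1.03 ± 0.35 that was not called (adjusted p = 0.216).

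PSAF, the docking subunit for plastocyanin, held 852, 776 and 799 CPM in untreated wild type and 405, 397 and 396 with ABA. Mutant PSAF values were 181, 374 and 461 CPM untreated, with replicate 1 far below the others, and 220.3, 153 and 275 with ABA. It fell with ABA in wild type (-1.02 ± 0.29, adjusted p = 0.00942) and was lower in the untreated mutant (-1.25 ± 0.29, adjusted p = 0.00831), or -0.39, not called, and -0.6, called, after GC correction. Of the antenna-binding subunits, PSAK was lower with ABA in wild type (-1.63 ± 0.34, adjusted p = 0.0014) and in the untreated mutant (-1.92 ± 0.34, adjusted p = 0.00181). PSAG was lower in the same 2 comparisons (-0.98 ± 0.14, adjusted p = 8.81e-05, and -1.36 ± 0.14, adjusted p = 5.02e-05). For PSAG the corrected values were -0.37 and -0.66, both called. PSAN, a lumen subunit on the plastocyanin side, was the exception. PSAN stood at 639.5, 839 and 649 CPM in the untreated wild type libraries and at 511, 498 and 522 CPM with ABA. Mutant PSAN values were 488, 537 and 557 CPM untreated and 396, 274 and 532 CPM with ABA. All untreated wild type libraries were above all others, but neither difference was called, at -0.47 ± 0.21, adjusted p = 0.0743, with ABA and -0.43 ± 0.21, adjusted p = 0.154, in the untreated mutant. CURT1B, the curvature protein, fell (-0.54 ± 0.15, adjusted p = 0.0106) with ABA and was lower (-0.54 ± 0.15, adjusted p = 0.0257) in the untreated mutant, where GC correction (-0.31), library totals alone (-0.3) and leaving out any untreated wild type library or untreated mutant replicate 1 or 2 ended the call (-0.55 to -0.44 over these 5 libraries). With library totals the ABA response was -0.34 and also not called, and with GC correction it was -0.34.

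All 6 genes of the oxygen-evolving side of photosystem II fell with ABA in wild type and were lower in the untreated mutant, with median log2 fold changes of -1.94 and -2.04. PSBO stabilises the manganese cluster and is made from 2 genes. PSBO1 stood at 2682, 2798 and 2417 CPM in the untreated wild type libraries and at 556, 453 and 347 CPM with ABA. Mutant PSBO1 values were 174, 411 and 620.1 CPM untreated and 257, 150.2 and 337 CPM with ABA. Untreated wild type stood far above all others, while the untreated mutant spanned a range from below to above that of wild type with ABA. PSBO1 fell 5.82-fold with ABA in wild type (-2.54 ± 0.4, adjusted p = 0.000214) and was 6.55-fold lower in the untreated mutant (-2.71 ± 0.41, adjusted p = 0.000607). PSBO2 stood at 902, 906 and 772 CPM in the untreated wild type libraries and at 169, 141 and 101 CPM with ABA. Mutant PSBO2 values were 72, 141 and 239 CPM untreated and 93.1, 49.6 and 108 CPM with ABA. PSBO2 showed the same separation of untreated wild type and a wide spread in the untreated mutant, with log2 fold changes of -2.65 ± 0.39, adjusted p = 0.000131, and -2.51 ± 0.39, adjusted p = 0.000785. After GC correction the values of PSBO1 were -1.7 and -1.81 and those of PSBO2 -1.66 and -1.44, all called.

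PSBR, a small subunit that helps the extrinsic proteins to bind, had the highest level per kilobase of the 36 genes in untreated wild type and was among those that fell most. PSBR stood at 1492, 1943 and 1422 CPM in the untreated wild type libraries and at 453, 304 and 204 CPM with ABA. Mutant PSBR values were 110.4, 176 and 314 CPM untreated and 177, 105 and 198 CPM with ABA. Every untreated wild type library was far above all others, and the other groups overlapped except the ABA groups of the genotypes. The log2 fold change was -2.34 ± 0.39, adjusted p = 0.000303, with ABA and -3.02 ± 0.4, adjusted p = 0.000266, in the untreated mutant. Under ABA all mutant libraries lay below all wild type libraries, but the difference of -1 ± 0.37 was not called (adjusted p = 0.275). After GC correction the first value was -1.54 and called. PSBP-1, an extrinsic protein that retains calcium and chloride, was lower with ABA (-1.5 ± 0.34, adjusted p = 0.00273) and in the untreated mutant (-1.57 ± 0.34, adjusted p = 0.00645), or -0.9 and -0.94, both called, after GC correction.

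PSBQ, the outermost extrinsic protein, also has 2 copies. PSBQ-1 stood at 968, 1172 and 875 CPM in the untreated wild type libraries and at 334, 336 and 369.6 CPM with ABA. Mutant PSBQ-1 values were 394, 423 and 429 CPM untreated and 325, 282 and 442 CPM with ABA. Untreated wild type was apart, and the other libraries were close together. PSBQ-2 stood at 714, 1021 and 749 CPM in the untreated wild type libraries and at 508, 501 and 544 CPM with ABA. Mutant PSBQ-2 values were 296, 356 and 461 CPM untreated and 352, 305 and 504 CPM with ABA. For PSBQ-2 the gap between untreated wild type and wild type with ABA was narrower than that between untreated wild type and the mutant. PSBQ-1 fell with ABA (-1.54 ± 0.18, adjusted p = 2.53e-05) and was lower in the untreated mutant (-1.28 ± 0.18, adjusted p = 0.000444). PSBQ-2 fell (-0.68 ± 0.22, adjusted p = 0.0213) and was lower in the mutant (-1.16 ± 0.22, adjusted p = 0.00318). The PSBQ-2 response to ABA lost its call with library totals alone (-0.47) and without untreated wild type replicate 2 (-0.45) or ABA wild type replicate 1 (-0.66) or 2 (-0.65). GC correction gave PSBQ-1 -0.88 with ABA and -0.5 in the mutant, both called.

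Among the 7 genes for small subunits, PSBS and assembly factors, 7 fell with ABA in wild type and 6 were lower in the untreated mutant. PSBTN encodes a small subunit on the lumen side and had the largest change of the 36 genes in both comparisons. PSBTN stood at 405, 628 and 334 CPM in the untreated wild type libraries and at 45.1, 37.7 and 39.2 CPM with ABA. Mutant PSBTN values were 42.8, 36.1 and 54.4 CPM untreated and 31.3, 27.6 and 40.4 CPM with ABA. The 9 libraries outside untreated wild type lay within a narrow band far below the lowest untreated wild type library. PSBTN fell 11.2-fold with ABA in wild type (-3.49 ± 0.26, adjusted p = 5.11e-07) and was 10.3-fold lower in the untreated mutant (-3.36 ± 0.25, adjusted p = 8.53e-06). The response to ABA in the mutant was -0.43 ± 0.24, which was not called (adjusted p = 0.165). With GC correction both large values kept their call, at -2.6 and -2.35.

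PSBY, PSBW and PSBX are small membrane subunits. PSBY fell with ABA in both genotypes. PSBY stood at 559.6, 626 and 560.4 CPM in the untreated wild type libraries and at 107, 118 and 92.3 CPM with ABA. Mutant PSBY values were 137, 131 and 192 CPM untreated and 94.5, 77.5 and 102 CPM with ABA. Within each genotype no ABA library reached the untreated range, and the mutant started from a lower level. Its log2 fold changes were -2.46 ± 0.18, adjusted p = 6.01e-07, in wild type and -0.75 ± 0.18, adjusted p = 0.00454, in the mutant, and the untreated mutant was lower (-1.92 ± 0.18, adjusted p = 2.89e-05). PSBW, which stabilises supercomplexes with the antenna, was lower with ABA in wild type (-1.4 ± 0.19, adjusted p = 7.2e-05) and in the untreated mutant (-1.92 ± 0.19, adjusted p = 4.71e-05). Its libraries held 652, 919.8 and 574 CPM in untreated wild type and 305, 251 and 257 with ABA. Its mutant libraries held 225, 164 and 179 CPM untreated and 247, 263 and 254 with ABA, a log2 change of 0.43 ± 0.19 without a call (adjusted p = 0.086). PSBX was lower with ABA in wild type (-1.65 ± 0.33, adjusted p = 0.00115) and in the untreated mutant (-2.05 ± 0.34, adjusted p = 0.00109), or -0.76 and -1.12 after GC correction, both called.

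PSBS, the sensor of lumen acidity in non-photochemical quenching, had 1405, 1841 and 1411 CPM in untreated wild type and 533, 636 and 593 with ABA, without overlap. It fell (-1.4 ± 0.3, adjusted p = 0.00167). The untreated mutant (449.9, 715 and 929 CPM) was lower (-1.15 ± 0.3, adjusted p = 0.0148) and this call was lost without untreated wild type replicate 2 (-0.97) or untreated mutant replicate 1 (-0.92) or 2 (-1.13). PSB27, a lumen protein of photosystem II assembly and repair, fell (-1.98 ± 0.19, adjusted p = 4.37e-06) with ABA and was lower (-1.8 ± 0.19, adjusted p = 5.57e-05) in the untreated mutant. PSB28, known from cyanobacteria as an assembly factor, fell with ABA in both genotypes but was not called between untreated genotypes. PSB28 stood at 301, 336 and 278 CPM in the untreated wild type libraries and at 136, 151 and 103 CPM with ABA. Mutant PSB28 values were 74.6, 171 and 218 CPM untreated and 74.8, 44.1 and 107 CPM with ABA. The untreated mutant had a wide range, with replicate 1 at the level of the mutant ABA libraries. PSB28 fell with ABA in wild type (-1.23 ± 0.36, adjusted p = 0.0112, and -0.66, called, after GC correction). In the untreated mutant its value was -0.98 ± 0.35 without a call (adjusted p = 0.0611), although no untreated mutant library reached the wild type range. That difference was called by DESeq2 (-0.97) and without untreated mutant replicate 3 (-1.31) or mutant ABA replicate 2 or 3 (-0.98 and -0.98), and was -0.38 after GC correction.

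Of the 6 electron carriers, the genes of plastocyanin, ferredoxin and the Rieske protein fell with ABA in wild type and were lower in the untreated mutant, and those of the ferredoxin-NADP reductases were called in neither comparison. Plastocyanin is the copper protein between cytochrome b6f and photosystem I, and PETE2 is its main copy. PETE2 stood at 2064, 2498 and 1801 CPM in the untreated wild type libraries and at 418, 418 and 334 CPM with ABA. Mutant PETE2 values were 393, 494 and 749 CPM untreated and 304, 206 and 384 CPM with ABA. Untreated wild type was separate from all others and the untreated mutant was above the mutant with ABA. PETE2 fell 5.44-fold with ABA in wild type (-2.44 ± 0.28, adjusted p = 1.72e-05) and was 3.89-fold lower in the untreated mutant (-1.96 ± 0.27, adjusted p = 0.000375). It fell with ABA in the mutant as well (-0.87 ± 0.27, adjusted p = 0.019), a call lost without untreated mutant replicate 3 (-0.57) or mutant ABA replicate 1 (-0.88) or 2 (-0.66). PETE1 stood at 65.1, 68.1 and 62.5 CPM in the untreated wild type libraries and at 19.5, 17.9 and 16.3 CPM with ABA. Mutant PETE1 values were 9.06, 16.6 and 25.6 CPM untreated and 13.9, 9.36 and 17 CPM with ABA. Untreated wild type libraries of the minor copy also lay above all others, at a far lower level, with log2 fold changes of -1.87 ± 0.29, adjusted p = 0.000197, and -1.93 ± 0.29, adjusted p = 0.000678, or -1.26 and -1.28, both called, after GC correction.

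FD2 encodes the main leaf ferredoxin. FD2 stood at 1612, 2071 and 1591 CPM in the untreated wild type libraries and at 503, 467 and 476 CPM with ABA. Mutant FD2 values were 474, 597 and 661 CPM untreated and 301, 256 and 387 CPM with ABA. Groups were ordered as untreated wild type, untreated mutant, wild type with ABA and mutant with ABA, with overlap only between wild type with ABA and the untreated mutant. FD2 fell with ABA in both genotypes (-1.87 ± 0.2, adjusted p = 9.48e-06, in wild type and -0.88 ± 0.19, adjusted p = 0.00304, in the mutant) and was lower in the untreated mutant (-1.61 ± 0.2, adjusted p = 0.00015). Under ABA the 3 mutant libraries lay below the wild type ones, at -0.62 ± 0.19, adjusted p = 0.168, a difference that DESeq2 (-0.62) and the GC-corrected fit (-0.55) called. The Rieske gene PETC was lower with ABA (-1.16 ± 0.25, adjusted p = 0.00179) and in the untreated mutant (-1.06 ± 0.25, adjusted p = 0.00955), but GC correction left -0.28 and -0.07, neither of them called.

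Ferredoxin-NADP reductase makes NADPH at the end of the chain, and neither of its leaf copies was called in any comparison. FNR1 stood at 1216, 1106 and 1155 CPM in the untreated wild type libraries and at 856, 952 and 908 CPM with ABA. Mutant FNR1 values were 825, 1092 and 1168 CPM untreated and 786, 659 and 981 CPM with ABA. Wild type libraries with ABA were all below the untreated ones, and untreated groups overlapped between genotypes. The largest FNR1 log2 fold change was -0.36 ± 0.18, adjusted p = 0.117, for ABA in wild type. FNR2 stood at 1458, 1684 and 1467 CPM in the untreated wild type libraries and at 1152, 1391 and 1399 CPM with ABA. Mutant FNR2 values were 2004, 1873 and 1709 CPM untreated and 1397, 1403 and 1672 CPM with ABA. All 3 untreated mutant libraries of FNR2 were above all 3 untreated wild type libraries, at a log2 difference of 0.28 ± 0.16 that was not called (adjusted p = 0.22). With library totals in place of TMM factors, where the median of all genes in that comparison was 0.26 in place of 0.01, the difference was 0.53 and called, whereas GC correction left -0.02. The ABA response of FNR2 in wild type was -0.23 ± 0.16, adjusted p = 0.252, and became -0.57, called, after GC correction.

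Of the ATP synthase genes, ATPD was called and ATPC1, which encodes the gamma subunit through which light regulates the enzyme, was not. ATPC1 stood at 1207, 1340.5 and 1120.4 CPM in the untreated wild type libraries and at 953, 1123 and 1121 CPM with ABA. Mutant ATPC1 values were 1242, 1324 and 1322 CPM untreated and 1000.2, 951 and 1225 CPM with ABA. The untreated mutant libraries were above both ABA groups, all other pairs of groups overlapped, and no comparison was called (log2 fold changes from -0.29 to 0.08 without the interaction). ATPD, the delta subunit, fell with ABA in wild type (-1.17 ± 0.23, adjusted p = 0.000894) and was lower in the untreated mutant (-0.98 ± 0.22, adjusted p = 0.00848). PGR5 and PGRL1A, which serve cyclic electron flow around photosystem I, were called in no comparison. PGR5 stood at 119, 136 and 109 CPM in the untreated wild type libraries and at 120.1, 109 and 119 CPM with ABA. Mutant PGR5 values were 103, 99.1 and 88.8 CPM untreated and 119, 90.9 and 136 CPM with ABA. The untreated mutant libraries of PGR5 were below those of untreated wild type, and below those of wild type with ABA, and all other pairs of groups overlapped. PGRL1A stood at 295, 295 and 265 CPM in the untreated wild type libraries and at 296, 305 and 302 CPM with ABA. Mutant PGRL1A values were 279, 283 and 286 CPM untreated and 315, 283 and 344 CPM with ABA. PGRL1A stayed within a narrow range, at 0.08 ± 0.13 with ABA in wild type and -0.01 ± 0.13 in the untreated mutant, with adjusted p = 0.632 and 0.948.

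**Figure D4:**
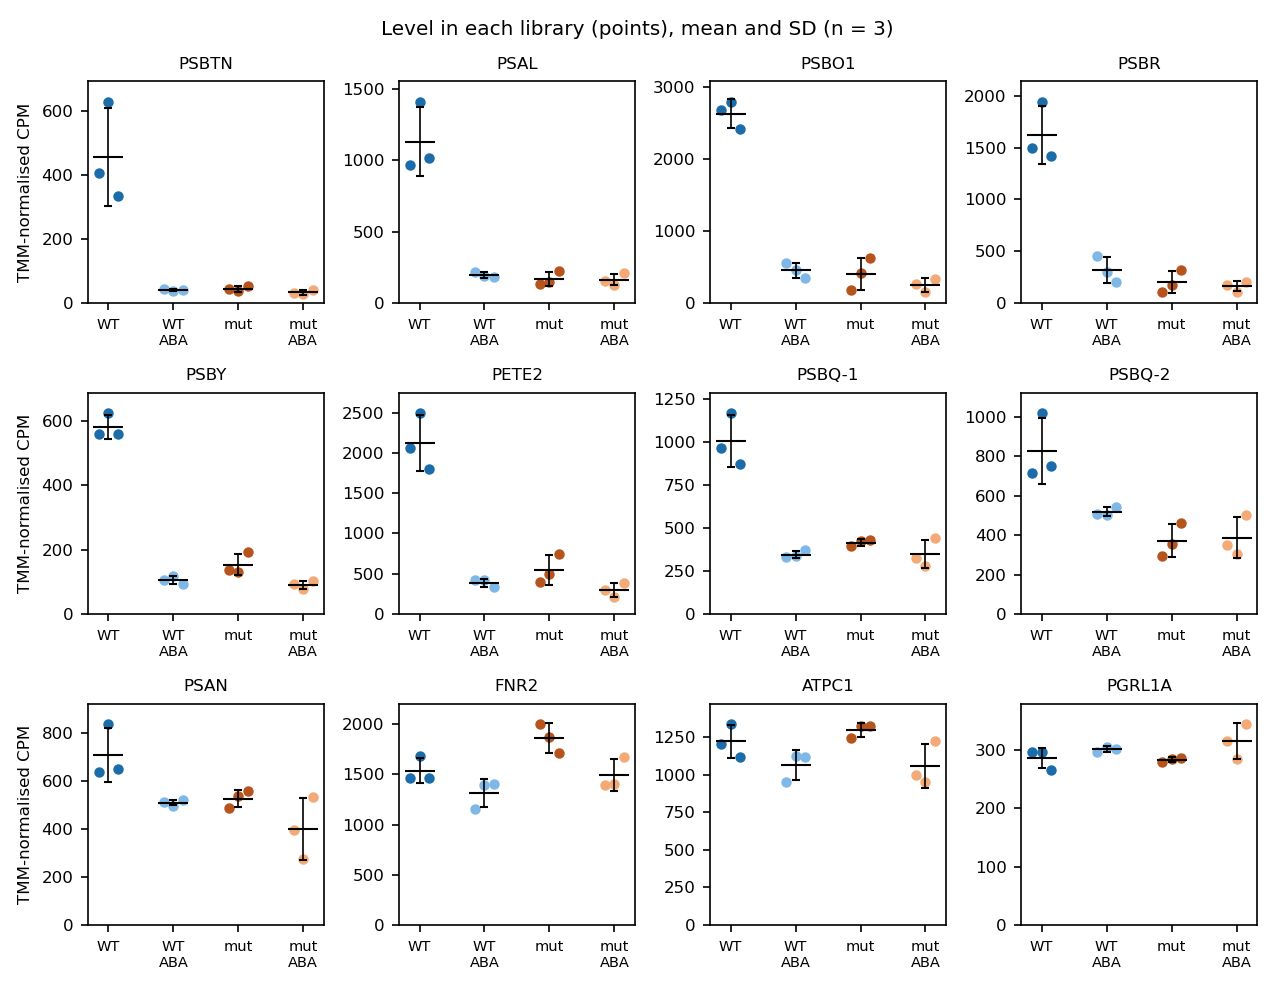
TMM-normalised CPM (vertical axis, from 0) of 12 of the 36 genes in each of the 12 libraries (points), with the mean (line) and SD (bars, n = 3) of each group. The first 2 rows hold genes in which untreated wild type lies above every other library. The last row holds PSAN, FNR2, ATPC1 and PGRL1A, which passed the test in no comparison, although untreated wild type lies above every other library for PSAN too.

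The response to ABA within the mutant was tested by setting the mutant ABA libraries against the untreated mutant. PSAD-1, PSBY, PSB28, PETE2 and FD2 fell. PSB28 fell (-1.04 ± 0.36, adjusted p = 0.0323) although its mutant groups overlapped, and this call was lost when only the groups compared were fitted (-1.06) and without untreated mutant replicate 2 (-0.96) or 3 (-0.71) or mutant ABA replicate 1 (-1.03) or 2 (-0.76). In photosystem I the largest value was that of PSAF, -0.65 ± 0.29, not called (adjusted p = 0.0835), and the smallest that of PSAL. The count depended on single libraries. It was 13 without untreated mutant replicate 1 (36.1%, against 21.4% of all genes) and 14 without mutant ABA replicate 3 (38.9%, against 21.3%). It was 3 without untreated mutant replicate 3 (8.33%, against 16.4%). Without mutant ABA replicate 1 it was 2 (5.56%, against 14.6%), and without mutant ABA replicate 2 it was 3 (8.33%, against 16%). 

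The interaction asks whether the ABA response differed between genotypes. All 11 called genes had a positive value, which here means that the fall seen in wild type was smaller or missing in the mutant. The interaction also uses the untreated wild type libraries, so a high draw in them would raise it. It was called for 6 of the 12 photosystem I genes, 5 of the 13 photosystem II genes and 0 of the 10 genes of carriers, ATP synthase and cyclic flow. The largest was that of PSBTN, 3.06 ± 0.34, adjusted p = 0.00119, followed by PSAL, 2.49 ± 0.34, adjusted p = 0.00337. PSBW had 1.83 ± 0.27, adjusted p = 0.00437, PSBY 1.71 ± 0.25, adjusted p = 0.00437, and PSB27 1.63 ± 0.26, adjusted p = 0.00788. These 5 genes kept the call in every setting tried, GC correction included, where they ranged from 1.34 for PSBY to 2.33 for PSBTN. The other 6 did not. PSAD-2, PSAG and PSBQ-1 lost it after GC correction, at 0.48, 0.42 and 0.71. PSAE-1 and PSAE-2 kept it there at 0.92 and 1.09, and PSAH-1 at 1.27, but each of these 3 lost it when ABA wild type replicate 2 or untreated mutant replicate 2 was left out, among other libraries. In all, leaving out single libraries ended the call in 9 of 12 fits for PSAD-2, 10 for PSAG, 6 for PSBQ-1, 2 for PSAE-1, 8 for PSAE-2 and 8 for PSAH-1. PETE2 was just outside, at 1.57 ± 0.38, adjusted p = 0.0557, and PSAN (0.08), PSB28 (0.19) and FNR1 (0.01) had the smallest values of their classes.

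Left-out libraries moved the interaction count from 11 (30.6%, against 1.66% of all genes), and the share of all genes moved too. The count was 5 (13.9%) without ABA wild type replicate 2 or untreated mutant replicate 2, against 0.697% and 0.544% of all genes. It was 6 (16.7%) without untreated wild type replicate 1 or untreated mutant replicate 1, against 0.938% and 1.01%. Without untreated wild type replicate 2 or mutant ABA replicate 1 or 3 it was 7 (19.4%), against 0.841%, 1.11% and 0.923%. It was 16 without untreated mutant replicate 3 (44.4%, against 2.04%). DESeq2 called 18 (50%, against 2.58% of all genes).

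Several subunits come from 2 gene copies, and the balance between copies, as the share of 1 copy in the summed level per kilobase, is given here for each group. The copies are 74.6% to 88% identical over their aligned coding bases, and no stretch of 50 bases of any of the 36 genes occurs in an annotated transcript of another gene, so reads can be assigned between copies where counting used unique matches, which no source used here states. PSAE-1 made up 60.9 ± 0.403% of PSAE in untreated wild type, 69.5 ± 3.3% with ABA, 75.2 ± 6.17% in the untreated mutant and 75.3 ± 2.41% in the mutant with ABA, with no untreated wild type library in the range of the others. PSAH-1 made up 31.2 ± 2.72% of PSAH in untreated wild type and 21.1 ± 3.28%, 18.5 ± 1.47% and 18.7 ± 1.87% in the same order of groups, again without overlap with untreated wild type. PSBQ-1 held 60.9 ± 2.16% in untreated wild type and 46 ± 0.428% with ABA, but 59.1 ± 4.42% in the untreated mutant and 53.6 ± 0.753% in the mutant with ABA. Its untreated groups overlapped between genotypes, while the wild type ABA libraries were below all others. The shares of PSAD-1 (84.4% to 86.8% as group means), PSBO1 (69.8% to 74.4%) and PETE2 (94.4% to 96.3%) moved by less than 5 percentage points, and that of FNR2 was 52.1 ± 3.1% in untreated wild type and 59.9 ± 6.14% in the untreated mutant, with overlapping libraries. No test was run on these shares, and they were not corrected for GC content. With GC correction the ABA responses of PSAE-1 and PSAE-2 in wild type were -0.58 and -0.71, in place of -1.67 and -2.21. For PSAH-1 and PSAH2 they were -1.5 and -0.51, in place of -1.71 and -0.97. Between the untreated genotypes PSBQ-1 and PSBQ-2 had -0.5 and -0.95, in place of -1.28 and -1.16.

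Some exons overlap genes on the other strand, and no source used here says whether counting used the strand. The overlap covers 788 exonic bases of PSAH-1, 479 of PSAG, 431 of PSAE-1, 191 of FNR1 and 174 of PSAH2. If strand was not used, reads of these genes and of their antisense partners cannot be told apart. The copy shares of PSAE, PSAH and FNR carry the same limit.

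Related genes outside the 36 were read in further lists, which held genes that rose and genes that fell. Of 12 tested genes for other photosystem and electron transport subunits, 5 fell and 2 rose with ABA in wild type, and 4 were lower and 1 higher in the untreated mutant. These shares of 41.7% and 33.3% lower stand against 28.2% and 14.8% of all genes. The shares higher, 16.7% and 8.33%, stand against 25.2% and 8.77%. This list also holds FD3, RFNR1, RFNR2 and LPA19, so its shares are not those of photosynthetic chain subunits alone. FD1, the second leaf ferredoxin, fell (-2.09 ± 0.18, adjusted p = 2.1e-06) and was lower in the untreated mutant (-2.23 ± 0.18, adjusted p = 1.69e-05) while PGRL1B, the partner copy of PGRL1A, rose with ABA in wild type (1.52 ± 0.15, adjusted p = 7.03e-06). PDE334, a membrane subunit of the ATP synthase, fell (-1.36 ± 0.22, adjusted p = 0.000225). With GC correction FD1 had -0.98 and -0.95, and PDE334 -0.83 with ABA, all called. Of 14 subunits of the NDH complex, which serves cyclic flow, 4 fell and 1 rose with ABA in wild type. In the untreated mutant 3 were lower and 1 higher. The shares that fell with ABA (28.6%) and were lower in the mutant (21.4%) stand against 28.2% and 14.8% of all genes. The share higher was 7.14% in each comparison, against 25.2% and 8.77%. The rise was in NdhS (0.86 ± 0.12, adjusted p = 6.02e-05) and the largest fall in PnsB3 (-1.22 ± 0.17, adjusted p = 7.74e-05). Among 14 assembly and repair factors 4 fell and 3 rose with ABA in wild type, shares of 28.6% and 21.4% against 28.2% and 25.2% of all genes. The 3 that rose were FTSH2, FTSH5 and FTSH8, subunits of the protease that removes damaged photosystem II cores, led by FTSH8 (1.73 ± 0.28, adjusted p = 0.000274). In the untreated mutant 3 of these 14 were lower (21.4%, against 14.8% of all genes) and 0 higher.

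Of 8 genes for thylakoid kinases, their phosphatase, CURT1 proteins and the xanthophyll cycle, 3 rose and 3 fell with ABA in wild type and 2 were lower in the untreated mutant, or 37.5%, 37.5% and 25% against 25.2%, 28.2% and 14.8% of all genes. ZEP, which makes violaxanthin and thereby the precursor of ABA, rose (1.49 ± 0.24, adjusted p = 0.000258) and STN8, the kinase of photosystem II cores, fell (-1.4 ± 0.28, adjusted p = 0.00112) or -0.17 and not called after GC correction. Among 15 regulators and plastid sigma factors, 4 rose and 5 fell with ABA in wild type, and 1 was higher and 3 lower in the untreated mutant. Their shares that rose (26.7%) and fell (33.3%) with ABA stand against 25.2% and 28.2% of all genes. The shares lower (20%) and higher (6.67%) in the mutant stand against 14.8% and 8.77%. GLK1 and GLK2 are transcription factors that activate nuclear photosynthesis genes, and HY5 promotes light responses. GLK1 fell with ABA (-1.29 ± 0.24, adjusted p = 0.000758) and was lower in the untreated mutant (-1.4 ± 0.24, adjusted p = 0.00164). GLK2 was lower in the untreated mutant (-1.04 ± 0.21, adjusted p = 0.00343) and HY5 (-0.75 ± 0.17, adjusted p = 0.00676). After GC correction GLK1 had -0.47 with ABA and -0.52 in the untreated mutant, both called, and HY5 -0.54, not called. PIF3, a phytochrome-interacting factor, rose with ABA in wild type (2.38 ± 0.13, adjusted p = 7.77e-08) and in the mutant (2.34 ± 0.13, adjusted p = 9.34e-08). SIG5, the stress-responsive sigma factor, rose with ABA in wild type (1.81 ± 0.38, adjusted p = 0.00144). Whether any of these moved the 36 genes was not tested.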

How the data were processed

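Messenger RNA of 12 libraries was measured, 3 biological replicates in each of 4 groups, and the authors deposited raw counts, whole numbers per gene and library, with no normalization that the values show. Per the labels' protocols the RNA was extracted with Trizol, treated with DNase and made into libraries with a stranded mRNA kit. The submitters' processing notes list the build TAIR10, Trim Galore 0.3.3 and edgeR with no version. Neither the aligner nor the counting tool nor its use of strand is given in the sources used here. Libraries held 14691544 to 22477294 counts, in which 3 counts equal 0.133 to 0.204 CPM before TMM scaling.

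Counts were fitted with edgeR 4.0.16 in R 4.3.3 over all 21322 genes left by filterByExpr, with TMM factors, 1 mean per group and quasi-likelihood tests, and called at a Benjamini-Hochberg adjusted p under 0.05. Every adjusted p comes from this fit unless another setting is named. A standard error is the absolute log2 fold change over the square root of F. The common biological coefficient of variation was 0.185. All 36 genes matched TAIR10.1 by ID, as did all 83 other listed genes. Of the 33610 IDs, 32843 matched. The deposited table gives no positions, so coordinates are those of TAIR10.1.

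The 36 genes, the other gene lists, the promoter windows shown and the tests were chosen with earlier results of these data known. Per-library values were given for both copies of 2-copy subunits and, in each comparison, for the largest and smallest change within each class, and up to 4 genes of each other list by adjusted p. PSAG, PSAK, PSBP-1, PSBW, PSBX, PSBS, PSB27, PETC, ATPD and CURT1B are named as members. Alternatives were DESeq2 1.42.0 size factors and its Wald test, library totals alone, no filter on low counts, only the groups compared, a smooth correction for GC content and length (spline with 5 degrees of freedom), a replicate block, and leaving out each library. Replicate libraries differed by more than sampling noise (chi-square per degree of freedom 7.6 to 54.9), so none was counted as a repeat. The workflow was run on simulated counts with planted fold changes. Those counts had no GC trend and no shift shared by the genes of a library, so the run says nothing about either.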

Additional observations from a re-analysis of the deposited data

Results flagged for a closer look

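The response to ABA differed between genotypes for 11 of the 36 genes by edgeR's test of the interaction, and each value below is the log2 ABA response of the mutant less that of wild type. In photosystem I these were PSAD-2 at 0.94 ± 0.19 (adjusted p = 0.0288), PSAE-1 at 1.83 ± 0.33 (adjusted p = 0.0148), PSAE-2 at 2.3 ± 0.49 (adjusted p = 0.0323), PSAG at 0.92 ± 0.19 (adjusted p = 0.0309), PSAH-1 at 1.5 ± 0.31 (adjusted p = 0.0271) and PSAL at 2.49 ± 0.34 (adjusted p = 0.00337). In photosystem II they were PSBQ-1 at 1.29 ± 0.26 (adjusted p = 0.023), PSBTN at 3.06 ± 0.34 (adjusted p = 0.00119), PSBW at 1.83 ± 0.27 (adjusted p = 0.00437), PSBY at 1.71 ± 0.25 (adjusted p = 0.00437) and PSB27 at 1.63 ± 0.26 (adjusted p = 0.00788). Among the other lists, FD1 had 2.03 ± 0.25 (adjusted p = 0.00229), CURT1A 1.24 ± 0.27 (adjusted p = 0.0357), not called with library totals or GC correction, and the root marker SHR 1.48 ± 0.26 (adjusted p = 0.0112). Of the 11 members, PSAD-2, PSAG and PSBQ-1 were not called with GC correction (0.48, 0.42 and 0.71). PSAE-1 and PSAE-2 were still called there, at 0.92 and 1.09. PSAD-2, PSAG, PSBQ-1, PSAE-1, PSAE-2 and PSAH-1 also lost the call in some of the fits that left out a library. In all 11 members the untreated mutant was lower than untreated wild type, so the mutant response was measured from a lower level. A high draw in the untreated wild type libraries would raise each of these values.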

How the results depend on the processing

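Over the 36 genes and 5 comparisons, no alternative reversed a called direction: of results called as reported, 1384 kept the call under an alternative and 105 lost it, and of those not called, 2006 stayed uncalled and 69 gained a call. With GC and length correction the median log2 fold change became -0.82 for ABA in wild type and -0.94 for the untreated mutant, and with the replicate block added -0.82 and -0.96. Genes called lower in the mutant with ABA numbered 8 with DESeq2's test (22.2%, against 18.2% of all genes). They numbered 13 with GC correction, with or without the block (36.1%, against 25.1% and 25.6%). With the block PSBW was also called higher (0.43). Genes called lower in the mutant under ABA numbered 2 with DESeq2 (5.56%, against 0.616%). They numbered 1 with GC correction, with or without the block (2.78%, against 0.324% and 0.394%). The interaction count was 18 with DESeq2 (50%, against 2.58%). It was 5 with GC correction and block (13.9%, against 0.793%), and the cause of these shifts was not tested. Leaving out each library gave counts of 28 to 31 for ABA in wild type, 2 to 14 for ABA in the mutant, 26 to 30 for the untreated mutant, 0 to 1 under ABA and 5 to 16 for the interaction. As shares of the 36 genes these are 77.8% to 86.1%, 5.56% to 38.9%, 72.2% to 83.3%, 0% to 2.78% and 13.9% to 44.4%. The shares of all genes in these fits were 22.8% to 29.2%, 14.6% to 22%, 8.9% to 16%, 0.0511% to 0.419% and 0.544% to 2.04%. The medians of the 36 genes ranged in the same order from -1.5 to -1.23, -0.52 to -0.19, -1.63 to -1.26, -0.52 to -0.16 and 0.85 to 1.22.

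Same-numbered libraries of different groups had residual correlations of -0.363 to 0.537 in 18 pairs, with 6 over 0.1. Differently numbered libraries had -0.54 to 0.567 in 36 pairs, with 13 over 0.1, so numbers were not taken as pairs. With a replicate block the counts were 30, 5, 29, 0 and 8, and PSAE-2, PSAG and PSAH-1 lost their interaction. Those counts are 83.3%, 13.9%, 80.6%, 0% and 22.2% of the 36 genes, against 27.3%, 20.2%, 14.3%, 0.174% and 1.23% of all genes. Library totals without TMM put the median of all genes at 0.17 (ABA in wild type) and 0.26 (untreated genotypes), in place of -0.03 and 0.01, and moved the calls over all genes from 5376 higher and 6012 lower to 7116 and 4504, and from 1869 and 3153 to 5317 and 2079. With library totals 28 of the 36 genes were called lower in each of these comparisons (77.8%, against 21.1% and 9.75% of all genes). With 3 libraries a group, standard errors of the interaction reach 0.54 over the 36 genes.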
